A study of Mus musculus with 4 samples.

Results

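Cytochrome P450 genes of families 1 to 3 were followed in the intestinal mucosa of mice on a high-fat or a low-fat diet. Members were all genes whose symbol in the platform annotation begins with Cyp1, Cyp2 or Cyp3 followed by a letter, which gave 43 of the 13319 annotated genes, on 48 probe sets. Where a gene had several probe sets, the one with the highest mean scaled signal stood for it. Genes with the same brightest probe set shared 1 measurement, which was the case for Cyp2a4 with Cyp2a5 and for Cyp3a41a with Cyp3a41b, so the 43 genes gave 41 measurements. The groups were A/J mice on the high-fat diet, A/J mice on the low-fat diet, C57BL/6J mice on the high-fat diet and C57BL/6J mice on the low-fat diet, all male and 10 weeks old. Both are inbred strains, and no transgene or drug is named for any group. Each diet was given for 2 weeks to 6 mice per group. RNA of 2 mice of average weight was pooled for each group and hybridised to 1 Affymetrix 430A array, so each value below is 1 array and there is no spread between replicates of a group.

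These enzymes sit in the endoplasmic reticulum, carry a haem group and insert oxygen into lipophilic substrates with electrons passed on by a reductase. Families 1 to 3 are known for clearing drugs, plant compounds and pollutants, and several members also oxidise fatty acids, retinoids, steroids or bile acids. Family 1 is induced through the aryl hydrocarbon receptor (AhR), and much of families 2 and 3 through the pregnane X receptor (PXR, Nr1i2) and the constitutive androstane receptor (CAR, Nr1i3). In the gut the enzymes of the villus epithelium meet swallowed compounds before the liver does.

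Signals were scaled so that the trimmed mean of each array was 500, and signals under 100 were set to that floor before a ratio was taken. Where 1 of the 2 signals was floored, the true ratio can only be larger, which "at least" marks. Of the 41 measurements, 17 had a mean scaled signal of at least 100 and are called measured, which is 41.5% of them, against 65.1% of all 12698 rows. On all 4 arrays, 12 of the 17 were above the floor. The other 5, Cyp1a1, Cyp2c23, Cyp2c70, Cyp2d13 and Cyp2j9, were under it on at least 1 array, and such a gene can pass the filter through the arrays on which it is high. Just inside the limit lay Cyp2j9, with a mean of 119.8, and just outside it Cyp2c38, with a mean of 99.3.

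The upstream sequences below are shown for members at least 2-fold apart between strains on 1 diet or between diets in 1 strain and for which RefSeq gave a window, with Cyp3a11 and Cyp3a25, chosen after their values were seen, as neighbours that hold half-sites of nuclear receptors. Each is the 250 bases before the start site in RefSeq, build GRCm38.p6, in lower case and read along the gene. Capitals mark AGGTCA, the half-site of many nuclear receptors, and AGTTCA, a half-site used by PXR and CAR, on either strand, and the AhR element TNGCGTG was searched too. The 3 motifs do not overlap each other in the lines below. The windows lie at chr9:57697363-57697612 on the plus strand for Cyp1a1, chr19:39006769-39007018 plus for Cyp2c55, chr19:40187287-40187536 minus for Cyp2c70, chr4:96553652-96553901 minus for Cyp2j6, chr5:145879855-145880104 minus for Cyp3a11 and chr5:146009618-146009867 minus for Cyp3a25.
Cyp1a1: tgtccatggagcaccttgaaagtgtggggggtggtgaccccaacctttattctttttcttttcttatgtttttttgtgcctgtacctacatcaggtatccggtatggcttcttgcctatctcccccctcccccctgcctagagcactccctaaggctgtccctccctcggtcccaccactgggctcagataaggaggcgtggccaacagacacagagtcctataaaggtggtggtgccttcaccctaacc
Cyp2c55: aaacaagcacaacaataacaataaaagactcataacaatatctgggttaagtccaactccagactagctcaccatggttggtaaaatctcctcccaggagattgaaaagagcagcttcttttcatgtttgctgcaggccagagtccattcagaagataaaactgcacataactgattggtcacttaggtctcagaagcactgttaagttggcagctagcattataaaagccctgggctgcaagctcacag
Cyp2c70: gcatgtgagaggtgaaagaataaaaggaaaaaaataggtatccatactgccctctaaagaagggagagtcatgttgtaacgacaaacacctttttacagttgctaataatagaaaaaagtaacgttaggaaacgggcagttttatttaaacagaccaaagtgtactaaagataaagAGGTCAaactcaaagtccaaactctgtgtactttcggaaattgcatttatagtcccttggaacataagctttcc
Cyp2j6: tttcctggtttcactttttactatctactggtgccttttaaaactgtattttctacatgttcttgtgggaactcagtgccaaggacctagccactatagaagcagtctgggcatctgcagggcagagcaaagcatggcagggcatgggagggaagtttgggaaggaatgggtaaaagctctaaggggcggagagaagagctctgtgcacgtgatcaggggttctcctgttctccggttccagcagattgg
Cyp3a11: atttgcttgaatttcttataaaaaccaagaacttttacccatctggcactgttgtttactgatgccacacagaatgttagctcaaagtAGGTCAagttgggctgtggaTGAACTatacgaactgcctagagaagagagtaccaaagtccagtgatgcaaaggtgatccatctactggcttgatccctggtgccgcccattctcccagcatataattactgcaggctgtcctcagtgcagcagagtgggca
Cyp3a25: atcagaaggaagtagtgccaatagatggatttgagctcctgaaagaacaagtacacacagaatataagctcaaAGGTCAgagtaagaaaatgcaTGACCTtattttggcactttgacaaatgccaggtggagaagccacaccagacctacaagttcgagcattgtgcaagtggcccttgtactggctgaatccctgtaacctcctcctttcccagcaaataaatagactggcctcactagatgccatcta

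RefSeq windows of 300 bases, 250 before and 50 after the start site, matched 36 of the 43 genes and 14 of the 17 measured ones. AGGTCA stood in the window of 4 measured members, Cyp2c29, Cyp2c70, Cyp3a11 and Cyp3a25, and in 16.3% of all 32851 windows. AGTTCA stood in 1, Cyp3a11, and in 14% of all windows. TNGCGTG stood in 1, Cyp2c68, and in 5.07% of all windows. A match is a string of letters and not a shown binding site, and a window without one says nothing of sites outside it.

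The enterocyte markers were bright on every array, with all 9 found markers above the floor and sums of their scaled signals of 163246 and 168953 on the A/J high-fat and low-fat arrays, and of 176017 and 175923 on the C57BL/6J high-fat and low-fat arrays. Many of these P450s are best known from liver, so liver transcripts were looked for: Alb lay under the floor on all arrays, at 23.2 to 60.9, and so did the fibrinogen genes Fga, Fgb and Fgg. These liver genes were named after their values were seen. Between 1 and 4 of the 13 found liver markers reached the floor on an array, and 3 were measured. The 13 summed to 727 and 659 on the A/J high-fat and low-fat arrays, and to 604 and 683 on the C57BL/6J high-fat and low-fat arrays. Other tissue signals did differ between arrays. The 14 exocrine pancreas markers summed to 2828 on A/J high-fat, against 118849 on A/J low-fat, and to 184626 on C57BL/6J high-fat, against 122564 on C57BL/6J low-fat. The 9 found stomach markers summed to 1445 on A/J high-fat, against 3489 on A/J low-fat, and to 9682 on C57BL/6J high-fat, against 2079 on C57BL/6J low-fat. Of these, Muc5ac, Atp4a, Cblif and Pgc lay under the floor on all arrays. The 10 T cell markers summed to 4313 and 3123 on the A/J high-fat and low-fat arrays, and to 7222 and 13030.1 on the C57BL/6J high-fat and low-fat arrays.

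**Figure D1:**
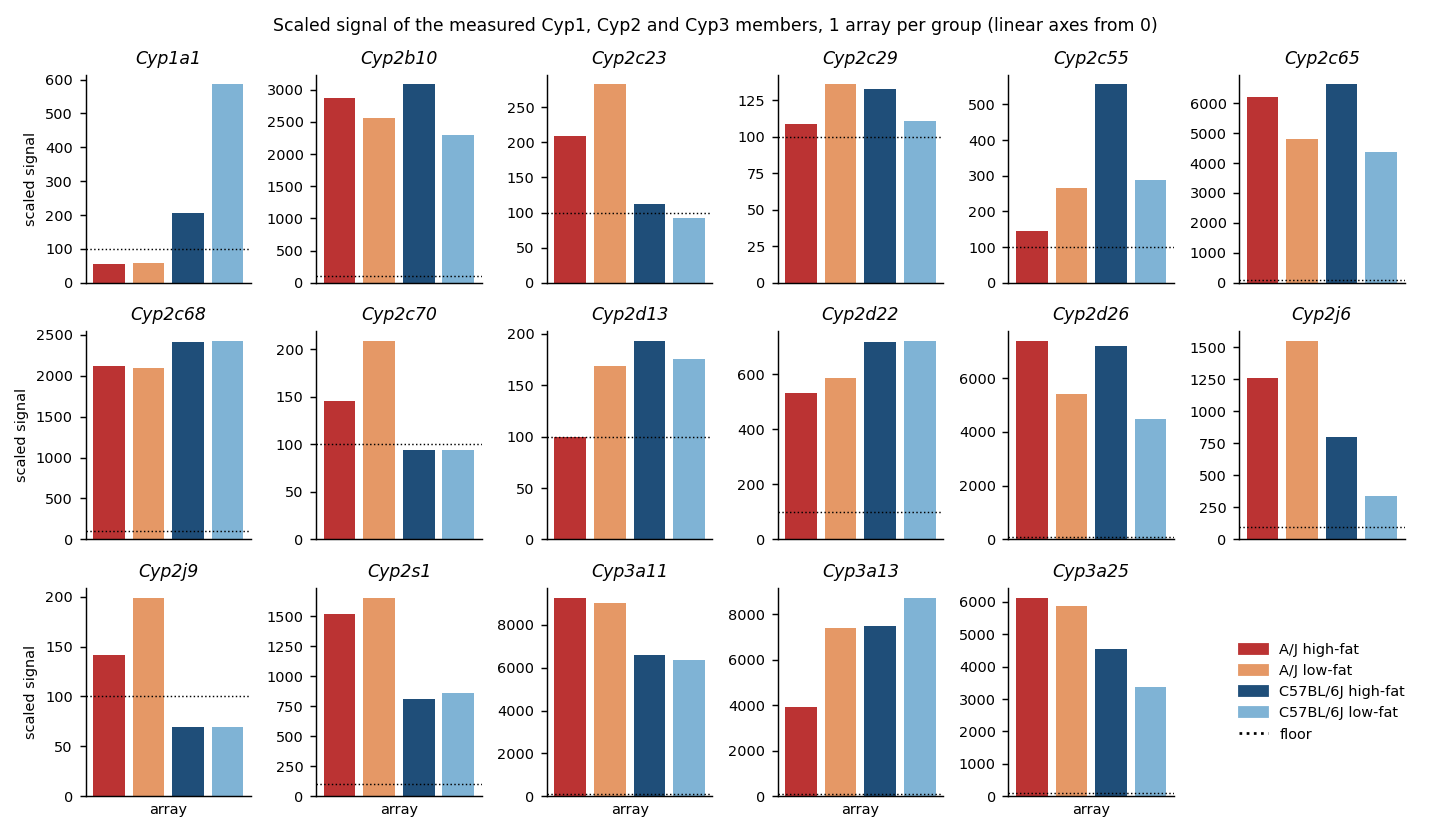
Scaled signal (vertical axes, linear from 0) of the 17 measured members on the 4 arrays, 1 bar per array, with the floor of 100 dotted. Cyp1a1 stood above the floor on the C57BL/6J arrays alone, and Cyp2j6 and Cyp2s1 were higher on both A/J arrays than on either C57BL/6J array. The share of all rows with such an order was not counted.

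The strain comparison asked whether the mucosa of A/J mice, known to resist diet-induced obesity, differed in these enzymes from that of C57BL/6J mice, which are prone to it. Of the 17 measured members, 4 were higher in A/J and 1 was lower by limma over all 4 arrays, at an adjusted p under 0.05. Those higher were Cyp2j6, Cyp2s1, Cyp2c23 and Cyp2c70, and the one lower was Cyp1a1. Cyp1a1 and Cyp2c70 had both signals of 1 strain under the floor and passed the signal filter through the other strain, so the filter used the values that the fit compares. Their p-values are therefore not given, and their calls are description only, which leaves 3 higher and 0 lower. Over all 8263 rows tested, 3.59% were higher and 3.38% lower in A/J by the same test. Rows that passed the filter through 1 strain were not taken out of these shares. They therefore stand beside the 4 and 1, not beside the 3 and 0. Without adjustment, 10 of the 17 had a p under 0.05 by limma, against 21.3% of all rows. The 10 include Cyp1a1, Cyp2c70 and Cyp2j9, which each passed the filter through 1 strain, so this count is description only. The fit has a strain and a diet term and 1 residual degree of freedom, so its error is the strain-by-diet difference among 4 pools and not a spread between mice. It also moderates each variance over all genes, and on simulated data of this design it made more false calls than its threshold states. With strain as the only factor 0 of the 17 passed by limma, while 69 of all rows were higher and 77 lower in A/J. With any 1 array left out of the strain fit, with a floor of 200 or with no signal filter, 0 of the 17 and 0 of all rows passed by limma.

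Cyp1a1 is the classic AhR target, an enzyme of polycyclic hydrocarbon oxidation. Its scaled signals were 54.9 on A/J high-fat and 56.8 on A/J low-fat, both under the floor, against 206 on C57BL/6J high-fat and 586 on C57BL/6J low-fat. The strains did not overlap. With 2 arrays of each strain such an order can readily arise by chance, here and for the members below. Its share over all rows was not counted. A/J was at least 2.06-fold lower on the high-fat diet and at least 5.86-fold lower on the low-fat diet. The fitted strain term on floored values was -1.80, and it moved with the floor, to -2.64 with a floor of 50 and -0.80 with a floor of 200. Cyp1a1 has 1 probe set, one that the maker marks by name as common to several transcripts. The other family 1 genes were dim. Cyp1a2, the neighbouring AhR target best known from liver, was at 40.3 on C57BL/6J low-fat, its highest array. Cyp1b1, an AhR target of extrahepatic tissues, reached the floor on A/J low-fat alone, at 118.8.

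The receptor and the measured AhR targets outside the P450s were set beside Cyp1a1. Ahr, the receptor itself, was at 392 and 487 on the A/J high-fat and low-fat arrays, and at 402 and 369 on the C57BL/6J high-fat and low-fat arrays, with a strain term of 0.18 (limma adjusted p = 0.679). Its repressor Ahrr lay under the floor throughout, between 66.5 and 85.9. Of the 6 measured rows on the list of AhR targets outside the P450s, 0 passed limma for strain and 0 for diet, and none reached 2-fold in any comparison. Beside Cyp1a1, the T cell list was also lower in A/J on the low-fat diet, with a median log2 ratio of -1.18 over 8 measured genes. On the high-fat diet the T cell median was 0.09. At 2-fold, 4 of the 8 T cell genes were lower in A/J on low-fat and 1 on high-fat, and 0 were higher on either. Over both diets, 3 of the 8 were lower in A/J by limma, where 3.38% of all rows were lower. The 5′ probe set of 18S ribosomal RNA was at 84.4 and 218 on the A/J high-fat and low-fat arrays, and at 1675 and 11009.7 on the C57BL/6J high-fat and low-fat arrays. The part of either in the Cyp1a1 difference was not tested, and in pooled tissue fewer cells of a type and less RNA per cell cannot be told apart.

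Cyp2j6 is a mouse P450 of the small intestine, in a subfamily that includes arachidonic acid epoxygenases. Its signals were 1256 on A/J high-fat and 1547 on A/J low-fat, against 800.1 on C57BL/6J high-fat and 339.5 on C57BL/6J low-fat. All 4 lay well over the floor, and the strains did not overlap, an order whose share over all rows was not counted. The C57BL/6J low-fat array, lowest for Cyp2j6, also had the highest 5′ 18S signal, 11009.7. The part of that in the Cyp2j6 ratios was not tested. A/J was 1.57-fold higher on the high-fat diet and 4.56-fold higher on the low-fat diet, and the strain term was 1.42 (SE 0.303, limma adjusted p = 0.0171). Its gene lies next to Cyp2j9 on chromosome 4, with 0 protein-coding genes between them. Cyp2j9 had 141 on A/J high-fat and 199 on A/J low-fat, against 69.6 and 69.8 on the C57BL/6J high-fat and low-fat arrays, both under the floor. It too passed the filter through A/J, and its strain term on floored values, 0.74, did not pass limma. The other subfamily genes, Cyp2j5 and Cyp2j13, were under the floor on every array.

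Cyp2s1 is a P450 of epithelia outside the liver that oxidises retinoids and is known as inducible through AhR. It had 1521 on A/J high-fat and 1652 on A/J low-fat, against 812 on C57BL/6J high-fat and 857 on C57BL/6J low-fat. The ratios were nearly the same on the 2 diets, 1.87-fold on high-fat and 1.93-fold on low-fat, with a strain term of 0.93 (SE 0.193, limma adjusted p = 0.0151). The strain difference of Cyp2s1 thus ran opposite to that of Cyp1a1. Cyp2b10, the standard CAR target of mouse liver, neighbours Cyp2s1 on chromosome 7 with 0 protein-coding genes between. It had 2868 on A/J high-fat and 2559 on A/J low-fat, against 3083 on C57BL/6J high-fat and 2296 on C57BL/6J low-fat, with overlapping strains and a strain term of 0.03 (limma adjusted p = 0.961). The other Cyp2b genes on the array, Cyp2b9, Cyp2b13 and Cyp2b19, stayed under the floor.

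The Cyp2c subfamily, whose members include arachidonic acid epoxygenases, had 11 genes on chromosome 19, of which 6 were measured. Cyp2c23, one of these epoxygenases, had 209.7 on A/J high-fat and 282 on A/J low-fat, against 112 on C57BL/6J high-fat and 92.3, under the floor, on C57BL/6J low-fat. A/J was 1.87-fold higher on the high-fat diet and at least 2.82-fold on the low-fat diet, with a strain term on floored values of 1.20 (SE 0.213, limma adjusted p = 0.00628), which was 0.95 with a pseudocount of 50 and 0.28 with a floor of 200, where the call was lost. Cyp2c70, which makes muricholic acids from chenodeoxycholic acid in mouse liver, had 145 on A/J high-fat and 208 on A/J low-fat, against 94.1 on C57BL/6J high-fat and 93.8 on C57BL/6J low-fat. Both C57BL/6J signals lay just under the floor, and the strain term on floored values was 0.80. The call of Cyp2c70 held under 3 of 10 alternatives with all arrays and both factors. The Cyp2c23 and Cyp2c65 probe sets are also marked by name as shared, but with the ending _s_at, where that of Cyp1a1 has _a_at.

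The other 4 measured Cyp2c members did not pass the strain test. Cyp2c65, a gene known from mouse gut, had 6212 on A/J high-fat and 4790.0 on A/J low-fat, against 6625 on C57BL/6J high-fat and 4372 on C57BL/6J low-fat, so that the order followed diet and the strains overlapped. Cyp2c68 had 2119 and 2089 on the A/J high-fat and low-fat arrays, and 2409.9 and 2420.2 on the C57BL/6J high-fat and low-fat arrays, with a strain term of -0.20 (limma adjusted p = 0.622). Cyp2c55, which oxidises arachidonic acid, had 145 on A/J high-fat and 266 on A/J low-fat, against 556 on C57BL/6J high-fat and 288 on C57BL/6J low-fat. A/J was 3.84-fold lower on the high-fat diet but only 1.08-fold lower on the low-fat diet, where the sign turned when arrays were left unscaled. Its strain term of -1.03 did not pass (SE 0.337, limma adjusted p = 0.101). Cyp2c29, an induced liver P450, lay near the floor at 109 to 136 on all arrays. Among the 5 unmeasured Cyp2c genes, Cyp2c37, Cyp2c39 and Cyp2c50 were under the floor on every array, and Cyp2c54 reached it on C57BL/6J low-fat alone, at 103. Cyp2c38 had 125 on A/J high-fat and 111 on A/J low-fat, against 72.6 on C57BL/6J high-fat and 87.9 on C57BL/6J low-fat.

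Family 3 enzymes are the main drug-oxidising P450s of the villus. Cyp3a11, the standard PXR target of the mouse, had 9261 on A/J high-fat and 9003 on A/J low-fat, against 6592 on C57BL/6J high-fat and 6367 on C57BL/6J low-fat. A/J was 1.40-fold higher on high-fat and 1.41-fold higher on low-fat, and the strain term of 0.50 did not pass (limma adjusted p = 0.164). Cyp3a25 is the next protein-coding gene on chromosome 5, and the windows of both hold the AGGTCA half-site. It had 6125 on A/J high-fat and 5862 on A/J low-fat, against 4555 on C57BL/6J high-fat and 3379.6 on C57BL/6J low-fat, and its strain term was 0.61 (limma adjusted p = 0.101). Cyp3a13, apart from these with 126 protein-coding genes between, had 3903 on A/J high-fat and 7399 on A/J low-fat, against 7459 on C57BL/6J high-fat and 8709.8 on C57BL/6J low-fat, with a strain term of -0.58 (limma adjusted p = 0.151). The other family 3 rows, Cyp3a16, Cyp3a44 and the pair Cyp3a41a and Cyp3a41b, had means of 9.2 to 64.0.

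The Cyp2d genes on chromosome 15 numbered 7, with 3 measured. Cyp2d26 was bright and did not separate the strains, with 7380.0 on A/J high-fat and 5432 on A/J low-fat, against 7215 on C57BL/6J high-fat and 4476 on C57BL/6J low-fat. Cyp2d22, often compared with the human drug-oxidising gene CYP2D6, had 532 and 587 on the A/J high-fat and low-fat arrays, and 716 and 720.5 on the C57BL/6J high-fat and low-fat arrays. Its strain term was -0.36 (limma adjusted p = 0.317). Cyp2d13 had 99.2 on A/J high-fat, just under the floor, and 169 on A/J low-fat, against 193 on C57BL/6J high-fat and 175 on C57BL/6J low-fat, and a second probe set of it stayed at 4.0 to 18.4. Cyp2e1, the ethanol-oxidising enzyme, lay around the floor at 82.4 to 107. Cyp2d9, Cyp2d10, Cyp2d12 and Cyp2d34 were under the floor on every array. Cyp2a12, the pair Cyp2a4 and Cyp2a5, Cyp2f2 and Cyp2g1 were under it on every array too.

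The members were also counted by size, with no test possible between 1 array and 1 array. On the low-fat diet 3 of 17 reached 2-fold in favour of A/J, Cyp2c23, Cyp2c70 and Cyp2j6, against 2.99% of all rows, and 1 was at least 2-fold lower, Cyp1a1, against 2.70% of all rows. On the high-fat diet 0 were at least 2-fold higher, against 2.01% of all rows, and 2 were at least 2-fold lower, Cyp1a1 and Cyp2c55, against 2.44%. At 1.5-fold on the high-fat diet, 3 members were higher in A/J, Cyp2c23, Cyp2j6 and Cyp2s1, against 8.30% of all rows, and 4 were lower, Cyp1a1, Cyp2c55, Cyp2d13 and Cyp3a13, against 6.95%. At 1.5-fold on the low-fat diet, 6 were higher, the same 3 with Cyp2c70, Cyp2j9 and Cyp3a25, against 10.7% of all rows, and 1 was lower, Cyp1a1, against 9.46%. The median log2 ratio of the 17 was -0.09 on high-fat and 0.28 on low-fat, against 0.04 and 0.02 over all measured rows. Without scaling between arrays the median of all rows moved to 0.31 on high-fat and 0.19 on low-fat, and the members past 2-fold in favour of A/J were then 2 on high-fat and 5 on low-fat.

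**Figure D2:**
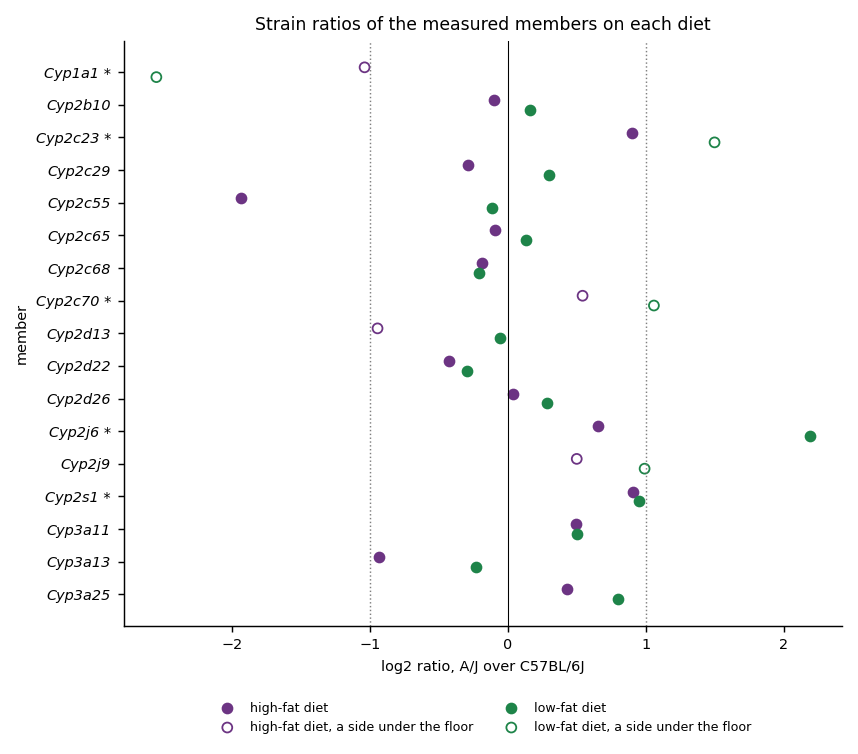
Log2 ratio of A/J over C57BL/6J (horizontal axis) for the 17 measured members, in purple on the high-fat and in green on the low-fat diet, with open circles where at least 1 side was under the floor, dotted lines at 2-fold and a star for members past limma. Cyp2j6 lay furthest right at 4.56-fold higher in A/J on low-fat, and Cyp1a1 furthest left at least 5.86-fold lower.

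The diet comparison asked how these enzymes stood after 2 weeks of dietary fat. By limma, 0 of the 17 members passed the adjusted threshold for the diet term over both strains, where 0.315% of all rows rose and 0.157% fell. Unadjusted, 4 of the 17 had a p under 0.05 by limma, against 9.16% of all rows. They were Cyp2d26 and Cyp2c65 with positive terms, and Cyp1a1 and Cyp3a13 with negative ones. Both A/J signals of Cyp1a1 lay under the floor, which sets its diet ratio in A/J to 0. Its diet term therefore rests on the other strain alone, and its place in this count is description only. In signal order, both high-fat arrays lay above both low-fat arrays for Cyp2d26 and Cyp2c65, and for the brightest Cyp2b10 probe set. With 2 arrays on each diet such an order can readily arise by chance. Its share over all rows was not counted, so no diet response is read from it.

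In A/J, 0 of 17 members were at least 2-fold higher on the high-fat diet, against 0.799% of all rows, and 0 were at least 2-fold lower, against 1.06%. At 1.5-fold, 0 members were higher, against 4.88% of all rows, and 3 were lower, against 4.62%. These were Cyp3a13, 1.90-fold lower, Cyp2c55, 1.84-fold lower, and Cyp2d13, at least 1.69-fold lower. The same A/J high-fat array carried the low pancreas sum of 2828, against 118849 on A/J low-fat, and the part of that difference in these ratios was not tested.

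In C57BL/6J, 1 member was at least 2-fold higher on the high-fat diet, against 0.980% of all rows, and 1 was at least 2-fold lower, against 0.702%. Cyp2j6 was 2.36-fold higher in C57BL/6J on high-fat, while in A/J it was 1.23-fold lower. Cyp1a1 was 2.85-fold lower in C57BL/6J, and in A/J both signals were under the floor, so no ratio can be given there. At 1.5-fold, Cyp2c55, Cyp2c65 and Cyp2d26 joined Cyp2j6, making 4 of 17 higher, against 5.08% of all rows, and Cyp1a1 stayed the 1 lower, against 4.66%. On the same arrays 4 of 5 measured stomach markers passed 2-fold in favour of high-fat, with a median log2 ratio of 1.64 over the 5, and 3 of 8 measured T cell markers were at least 2-fold lower, with a median of -0.91. The part of either in the P450 ratios was not tested. Cyp2c55 was 1.93-fold higher, Cyp2d26 1.61-fold and Cyp2c65 1.52-fold. In A/J, Cyp2d26 and Cyp2c65 were also higher on high-fat, by 1.36-fold and 1.30-fold, and their limma diet terms were 0.57 (SE 0.196, limma adjusted p = 0.381) and 0.49 (SE 0.196, limma adjusted p = 0.478). Cyp3a11 differed little with diet in either strain, by 1.03-fold in A/J and 1.04-fold in C57BL/6J, both higher on high-fat and both with a sign that turned without scaling.

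**Figure D3:**
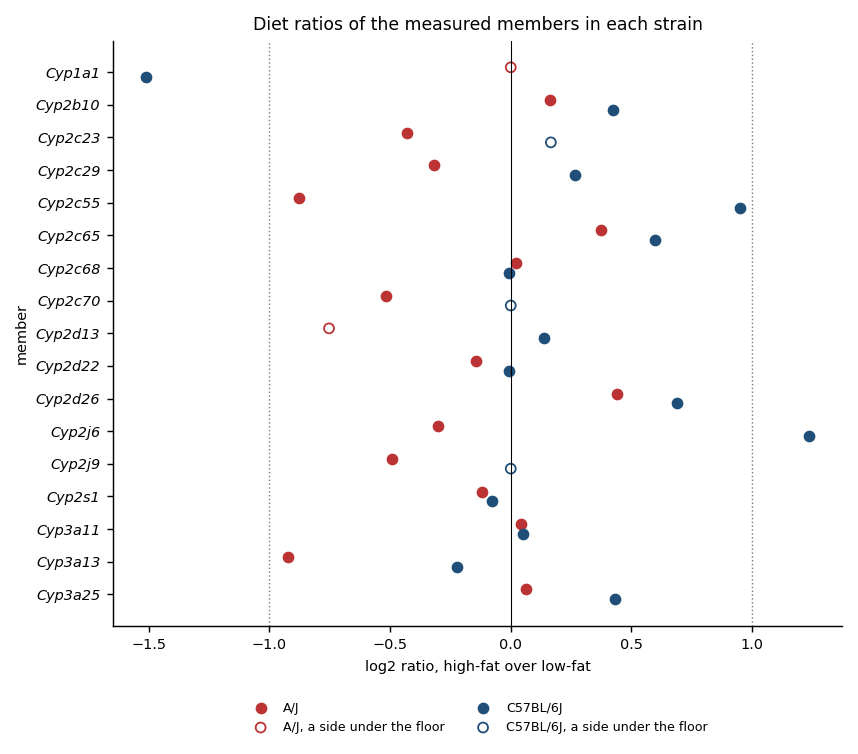
Log2 ratio of high-fat over low-fat (horizontal axis) for the 17 measured members, in red for A/J and in blue for C57BL/6J, with open circles where at least 1 side was under the floor (at 0 where both were) and dotted lines at 2-fold. In C57BL/6J, Cyp2j6 passed the right line at 2.36-fold and Cyp1a1 the left line at 2.85-fold, and no A/J point passed either.

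Genes that share regulators with these P450s were set beside them. Nr1i2, which encodes PXR, had 511 on A/J high-fat and 527 on A/J low-fat, against 848 on C57BL/6J high-fat and 781 on C57BL/6J low-fat, with a strain term of -0.65 (limma adjusted p = 0.0733). Nr1i3, which encodes CAR, had 852 and 683 on the A/J high-fat and low-fat arrays, and 942 and 899 on the C57BL/6J high-fat and low-fat arrays, with a strain term of -0.27 (limma adjusted p = 0.487). Of the 12 measured receptor genes, 1 was higher in A/J by limma, where 3.59% of all rows were higher. It was Ppara, the fatty acid receptor, with a strain term of 0.91 (limma adjusted p = 0.017). On the diet term 1 rose, where 0.315% of all rows rose. It was Nr0b2, a corepressor induced by bile acids, with a term of 1.25 (limma adjusted p = 0.0467). For this term its signal of 95.9 on C57BL/6J low-fat was floored.

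Of 12 measured rows of PXR and CAR targets outside the P450s, 4 were higher in A/J by limma and 0 lower, where 3.59% of all rows were higher. With the high-fat diet 2 of the 12 rose by limma and 0 fell, where 0.315% of all rows rose. This list was chosen with earlier results of these data known, so its counts are description only and no independent support. The drug efflux pump gene Abcb1a had 2144 on A/J high-fat and 1849.8 on A/J low-fat, against 1029 on C57BL/6J high-fat and 731 on C57BL/6J low-fat, with a strain term of 1.20 (limma adjusted p = 0.00396). The efflux pump Abcc3, the carboxylesterase Ces2a and the retinaldehyde dehydrogenase Aldh1a1 were higher in A/J too, with strain terms of 0.79, 0.90 and 1.27. Aldh1a1 and the related Aldh1a7 rose with the high-fat diet, by 1.33 (limma adjusted p = 0.037) and 1.50 (limma adjusted p = 0.0109) on the log2 scale. The median log2 diet ratio of the list stood at 0.12 for A/J and 0.52 for C57BL/6J, against -0.14 for A/J and 0.14 for C57BL/6J over the 17 P450s, and 0.0099 for A/J and -0.0093 for C57BL/6J over all rows.

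Redox partners and haem genes were counted in the same way. Of 6 listed redox partners 5 were found, Cyb5a, Cyb5b, Cyb5r3, Pgrmc1 and Pgrmc2, and 0 of these passed limma for either term. The P450 reductase gene Por was not among those found, so nothing is said of it here. Of 10 measured genes of haem synthesis and breakdown, 1 was higher in A/J, where 3.59% of all rows were higher, and 0 passed for diet. That gene was Alad, which makes porphobilinogen, with 2220.2 on A/J high-fat and 2094 on A/J low-fat, against 733 on C57BL/6J high-fat and 793 on C57BL/6J low-fat, and a strain term of 1.50 (limma adjusted p = 0.000834). Alas1, the rate-limiting enzyme of haem synthesis, had a strain term of -0.06 (limma adjusted p = 0.895).

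**Figure D4:**
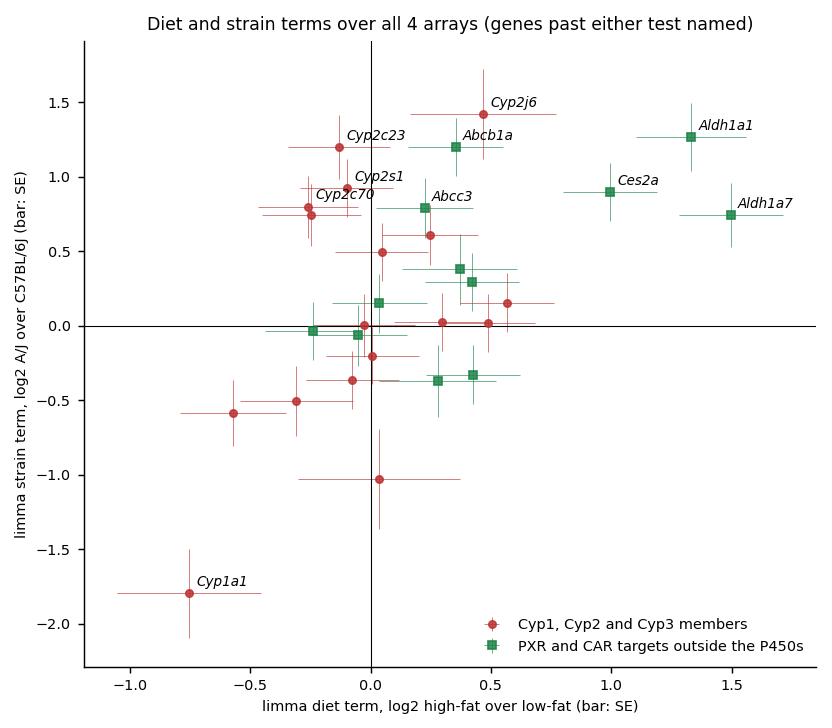
Limma diet term (horizontal axis, log2 high-fat over low-fat) against limma strain term (vertical axis, log2 A/J over C57BL/6J) over all 4 arrays, with SE bars, for the 17 measured members (red circles) and 12 measured PXR and CAR targets outside the P450s (green squares), where genes past either test are named. Cyp1a1 lay lowest, with a strain term of -1.80 that rests on the floor in A/J, and Aldh1a1 and Aldh1a7 lay furthest right, with diet terms of 1.33 and 1.50.

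Several members could be checked on another probe set. All 3 Cyp2b10 probe sets were brighter on C57BL/6J high-fat than on C57BL/6J low-fat, at 1289.6 against 901 in the dimmest of them, while in A/J they differed in direction. The dimmest is the only one of them not marked by name as shared. Its log2 ratio of A/J over C57BL/6J was 0.41 on low-fat, against 0.16 in the brightest. On high-fat these were -0.13 and -0.10. The dimmer Cyp2d22 probe set gave 349 on A/J high-fat and 467 on A/J low-fat, against 382 on C57BL/6J high-fat and 451 on C57BL/6J low-fat, so that the lower signal of both A/J arrays was seen in the brighter probe set alone. The 3 probe sets of Cyp1b1 reached at most 118.8. The 5 members past the strain test each have 1 probe set, so their values have no such check.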

How the data were processed

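Per the labels' protocols, cRNA made from pooled RNA was put on the Affymetrix mouse 430A array, and the authors computed an intensity per probe set with Microarray Suite 5.0 at default parameters. The deposited intensity is linear, and whether the arrays were scaled to a shared target is not given in the sources here. Each of 4 arrays, 1 per group, was multiplied by 2.80 (A/J high-fat), 2.72 (A/J low-fat), 3.41 (C57BL/6J high-fat) or 3.08 (C57BL/6J low-fat), which brought the mean of the non-control probe sets to 500 after 2% had been cut from either end. The platform annotation lists 20380 probe sets with 1 gene, 691 with several and 1555 with none. Signals were floored at 100 and logged to base 2. Rows with a mean of at least 100, 8263 in all, entered a limma fit (version 3.58.1, R 4.3.3) for strain and diet as additive terms, with Benjamini-Hochberg adjustment over all rows. Tested on simulated data, the fit recovered most changes but made more false calls than the threshold states, so adjusted p-values near it may be too small. Symbols were linked to chromosomes and RefSeq windows by name. All members could be named, and of other lists the genes past limma or at least 2-fold, with Ahr, Nr1i2, Nr1i3 and a few others (Ahrr, Alas1, liver genes) chosen after their values were seen. The members and lists were chosen with earlier results of these data known. With 4 arrays, precision is limited by their number. Alternatives were quantile normalization, no scaling, floors of 50 and 200, a pseudocount of 50, means of probe sets, probe sets of 1 gene, no shared probe sets, no signal filter, an intensity trend, 1 factor, and leaving out each array. Python 3.11.15 was used for other steps.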

Additional observations from a re-analysis of the deposited data

Results flagged for a closer look

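The log2 diet ratio of Cyp2c55 had opposite signs in the strains and differed by -1.83 between them, A/J minus C57BL/6J. On high-fat over low-fat it was 1.84-fold lower in A/J and 1.93-fold higher in C57BL/6J, from scaled signals of 145 on A/J high-fat and 266 on A/J low-fat, and of 556 on C57BL/6J high-fat and 288 on C57BL/6J low-fat. The difference was not tested, since 1 array per group leaves no error for it. The stomach markers also stood lowest on A/J high-fat and highest on C57BL/6J high-fat, with sums of 1445 on A/J high-fat and 3489 on A/J low-fat, and of 9682 on C57BL/6J high-fat and 2079 on C57BL/6J low-fat. The pancreas sums were 2828 and 118849 on the A/J high-fat and low-fat arrays, and 184626 and 122564 on the C57BL/6J high-fat and low-fat arrays. Their part in the Cyp2c55 ratios was not tested. Its neighbour Cyp2c65, the next protein-coding gene on chromosome 19 with starts 54.1 kb apart, was higher on high-fat in both strains, by 1.30-fold in A/J and 1.52-fold in C57BL/6J.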

How the results depend on the processing

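Of 8 member ratios of at least 2-fold, and of 5 members past the strain test, none changed sign under any alternative run. Only quantile normalization and no scaling could have turned a sign here. The other settings keep the order of the signals, repeat the estimate, drop the probe set or leave out 1 array where the strains do not overlap. The diet term called 0 members under every alternative with all arrays. With a floor of 200, no signal filter or diet as the only factor, it called 0 of all rows. These settings thus say nothing of the members in particular, and the diet calls of Nr0b2, Aldh1a1 and Aldh1a7 were lost there too. The strain term called 4 members higher and 1 lower. Of the higher, 2 were left when probe sets were averaged, 1 without shared probe sets, and 0 with a floor of 200, no signal filter, 1 factor, or any array left out (0 to 0). The 1 lower, Cyp1a1, became 0 with a floor of 200, without shared probe sets (which removes its only probe set), with no filter, with 1 factor or with any array left out (0 to 0), and an intensity trend gave 3 lower. With a floor of 200, no filter or an array left out, limma called 0 of all rows for strain, so these settings say nothing of the members in particular. At 2-fold, leaving out shared probe sets gave 0 members lower on high-fat in C57BL/6J, 1 lower in A/J on high-fat and 0 on low-fat. Without scaling, A/J was higher in 2 and lower in 1 on high-fat, and higher in 5 on low-fat. A floor of 50 gave 1 member in favour of A/J on high-fat, and a floor of 200 gave 1 lower there and 1 higher on low-fat. The cause of these shifts was otherwise not tested. The limma adjusted p of Cyp2j6 ran from 0.000991 to 0.705 over alternatives with all arrays and both factors, and that of Cyp2s1 from 0.00163 to 0.246. No paired analysis was possible because each group has 1 array and no replicate numbers in the labels. Signals near the floor limit Cyp1a1, Cyp2c23, Cyp2c70, Cyp2d13 and Cyp2j9 most.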
